A study of Mus musculus with 9 samples.

Results

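The genes examined here were the nuclear genes of oxidative phosphorylation in mouse microglia, taken as every symbol that begins with Ndufa, Ndufb, Ndufc, Ndufs, Ndufv, Uqcr, Cox4i, Cox5, Cox6, Cox7, Cox8 or Atp5, together with Sdha, Sdhb, Sdhc, Sdhd, Cyc1 and Cycs, leaving out the Ndufaf assembly factors and pseudogenes. This gave 87 of 23238 gene symbols, picked by name. Microglia were sorted as CD45+CD11b+P2ry12+ cells from female wild-type C57BL/6N mice and measured by 3′ end RNA sequencing in 9 libraries, 3 per group, each from a pool of 3 mice, on day 1. Untreated mice made up the Normal group. Mice of the NMO group received an injection on 1 side of the striatum of antibody from patients with neuromyelitis optica (NMO-IgG) mixed with human complement, and NMO+Clodronate mice also received liposomes carrying clodronate, a drug that kills phagocytic cells, into the peritoneum before that injection. No library came from mice given control antibody or empty liposomes, so injection, antibody and complement cannot be told apart here, nor can clodronate and its liposome carrier.

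Oxidative phosphorylation takes place in the inner mitochondrial membrane. Complex I accepts electrons from NADH and complex II from succinate, ubiquinone carries them to complex III, cytochrome c carries them on to complex IV, and there they reduce oxygen. Complexes I, III and IV pump protons, and complex V, the ATP synthase, uses the proton gradient to make ATP. Most subunits are made from nuclear genes and imported, complex II entirely so. The other complexes also hold a few subunits encoded in mitochondrial DNA. None of those 13 genes was found in the counts under its usual symbol, so they could not be analysed. In microglia, the balance between this pathway and glycolysis is known to shift when the cells are activated.

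By complex, the 87 genes comprised 7 core and 29 accessory subunits of complex I, 4 subunits of complex II, 9 of complex III with Cyc1, the gene Cycs for cytochrome c itself, 20 of complex IV with Ndufa4 and Ndufa4l2, and 15 of complex V. The other 2, Atp5s and Atp5sl, carry the prefix in their symbols but are not subunits of the enzyme. Library totals ran from 5788234 to 7837219 counts, and the 87 genes took 0.371 to 0.531% of them, while the ribosomal RNA gene Rn45s took 16.0 to 31.0%. Of the 87 genes, 81 passed the filter on low counts and entered the test, among 12292 genes in all. The 6 that did not pass were the isoforms Cox4i2 (0 to 15 counts per library), Cox6b2 (0 to 24), Cox7a1 (0 to 4), Cox8c (0 to 3), and Cox7b2 and Cox8b, which were at 0 in all 9 libraries. These 6 are known from lung, testis, heart or skeletal muscle, and a count of 0 allows up to 3 counts in a library, for counting error alone.

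The sorted cells carried the markers of microglia, but not to the same level in each group. The 10 microglial markers summed to 37170 to 42040 CPM, which are read counts scaled to the size of each library, in Normal, 31160 to 36430 in NMO and 21530 to 29660 in NMO+Clodronate, and the 3 groups did not overlap. Of the 10, 1 was significantly lower in NMO than in Normal, 3 in NMO+Clodronate than in NMO, and 7 in NMO+Clodronate than in Normal. P2ry12, which was also used for the sort, had 10178 to 16365 counts in the Normal and NMO libraries and 1640 to 3079 in NMO+Clodronate. The 8 neutrophil markers summed to 41.5 to 530 CPM in Normal, 102 to 379 in NMO and 265 to 1292 in NMO+Clodronate, and the 7 monocyte markers to 21.8 to 54.0, 51.2 to 106 and 34.3 to 76.6. Of the border macrophage, endothelial and neuronal markers 0 were called in any comparison, with list medians of -2.32 to 0.74 on the log2 scale. The T cell marker Cd3e was at 0 in all 9 libraries. NMO replicate 2 stood apart in haemoglobin and other erythrocyte markers, with 12.2 CPM against 391 to 661 in Normal, 473 and 802 in the rest of NMO and 852 to 981 in NMO+Clodronate. Normal replicate 1 stood apart from the rest of its group in neutrophil markers (530 against 41.5 and 46.4 CPM), in astrocyte and oligodendrocyte markers (57.05 against 14.5 and 16.2 CPM) and in its Rn45s share, the highest of all at 31.0%. In such bulk libraries, fewer cells of a type and less RNA per cell cannot be told apart.

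The promoters of the 3 genes that passed the test in any comparison, Sdhd, Ndufa12 and Atp5g1, are printed because many nuclear genes of this pathway are known to carry sites for Nrf1, Ets family factors and Yy1 near their starts. Each is the RefSeq window from 250 bases before to 50 bases after the start (build GRCm38.p6), 5′ to 3′ on the gene's strand, in lower case, with capitals at letters that match GCGCA and GCGC with 1 base between them (Nrf1), CCGGAAG (Ets) or AAGATGGCG (Yy1) on either strand. Sdhd lies at chr9:50603800-50604099 (minus strand), Ndufa12 at chr10:94198785-94199084 (plus strand) and Atp5g1 at chr11:96075582-96075881 (minus strand).
Sdhd: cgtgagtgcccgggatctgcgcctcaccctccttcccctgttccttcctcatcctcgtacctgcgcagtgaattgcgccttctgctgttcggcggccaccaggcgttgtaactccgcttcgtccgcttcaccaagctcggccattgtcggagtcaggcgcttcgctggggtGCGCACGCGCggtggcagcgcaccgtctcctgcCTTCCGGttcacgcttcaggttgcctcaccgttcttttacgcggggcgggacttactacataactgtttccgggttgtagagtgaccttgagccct
Ndufa12: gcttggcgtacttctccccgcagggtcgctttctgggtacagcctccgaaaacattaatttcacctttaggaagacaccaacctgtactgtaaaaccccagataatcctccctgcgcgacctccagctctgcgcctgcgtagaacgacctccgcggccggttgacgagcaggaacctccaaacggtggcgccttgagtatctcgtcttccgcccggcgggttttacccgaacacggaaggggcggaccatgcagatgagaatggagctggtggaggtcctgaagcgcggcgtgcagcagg
Atp5g1: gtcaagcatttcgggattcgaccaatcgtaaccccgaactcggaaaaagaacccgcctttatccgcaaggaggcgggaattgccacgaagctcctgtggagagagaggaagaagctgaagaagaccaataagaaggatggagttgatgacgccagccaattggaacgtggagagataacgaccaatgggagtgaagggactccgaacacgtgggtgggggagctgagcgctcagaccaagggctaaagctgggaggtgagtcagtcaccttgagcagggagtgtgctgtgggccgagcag
The Sdhd window held 1 Nrf1 match and 1 Ets match, beginning at positions -79 and -46 from the RefSeq start, and the windows of Ndufa12 and Atp5g1 held none of the 3 motifs. Of the 87 genes, 71 had a window in the table. The Nrf1 letters were present for 17 of these 71 genes (23.9%, against 5.19% of all 27025 genes with a window), the Ets letters for 16 (22.5%, against 9.93%) and the Yy1 letters for 8 (11.3%, against 1.64%). At least 1 of the 3 was present for 35 of the 71 (49.3%, against 15.1%). A match describes the letters in the window and is not evidence of binding.

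The summed level of the 87 genes, in CPM scaled by the TMM method, was 4176, 4463 and 4216 in the Normal libraries, 4475, 4918 and 5098 in NMO, and 5445, 5130 and 4515 in NMO+Clodronate. All 3 NMO and all 3 NMO+Clodronate values lay above the highest Normal value, the nearest by a narrow margin, and the NMO and NMO+Clodronate values overlapped. The means were 4285 ± 155 (SD, n = 3), 4830 ± 321 and 5030 ± 473, giving ratios of 1.13 for NMO to Normal, 1.04 for NMO+Clodronate to NMO and 1.17 for NMO+Clodronate to Normal. No p-value is given for a sum over chosen genes. With size factors of the RLE type, or with Rn45s removed before scaling, NMO and Normal overlapped (ratios 1.11 and 1.12), whereas NMO+Clodronate stayed above Normal under each of the 4 scalings tried.

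The pattern of the sum differed from complex to complex, and these differences were not tested. The complex V genes summed to 1003 to 1068 CPM in Normal, 1180 to 1313 in NMO and 1118 to 1594 in NMO+Clodronate, so that both injected groups lay above Normal. The same held for complex III, with 493 to 524 CPM in Normal, 544 to 620 in NMO and 569 to 769 in NMO+Clodronate. For the core subunits of complex I, NMO+Clodronate (337 to 391.8 CPM) lay above Normal (253 to 321 CPM) and NMO (312 to 362 CPM) overlapped both, and for complex IV, NMO+Clodronate (869 to 961 CPM) lay above Normal (786 to 855 CPM) and NMO (809 to 1100 CPM) overlapped both. For the accessory subunits of complex I, the ranges overlapped in all 3 comparisons (1185 to 1396, 1275 to 1381 and 1228 to 1474 CPM), as they did for complex II (279 to 314, 275 to 348 and 310.5 to 318 CPM).

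**Figure D1:**
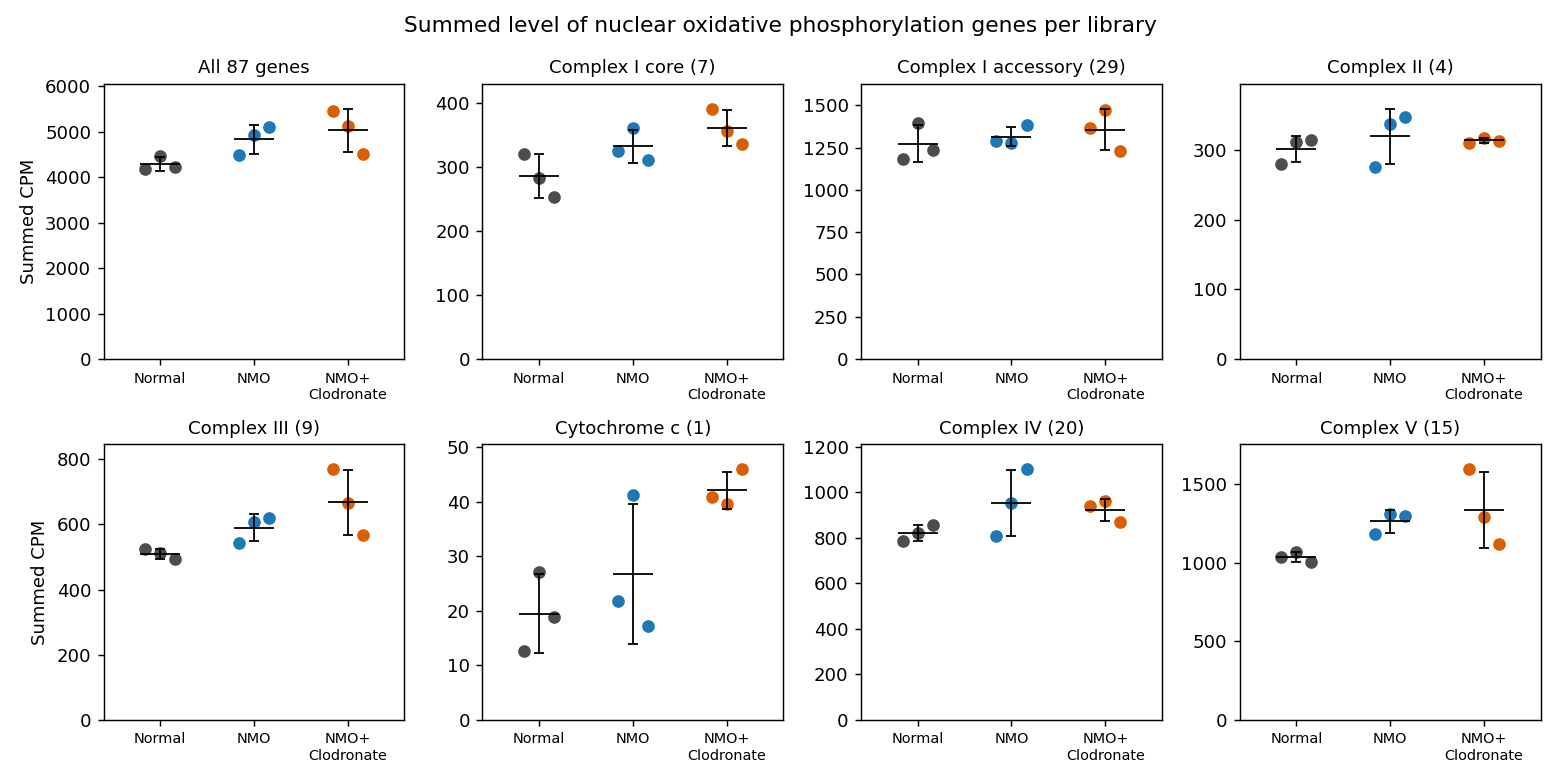
Summed CPM (TMM scaled, linear axis from 0) of all 87 genes and of each complex in each library, with 1 point per library, a horizontal bar at the group mean and an error bar of 1 SD (n = 3 libraries, each a pool of 3 mice). The NMO and NMO+Clodronate points lie above the Normal points for all 87 genes, complex III and complex V, and the groups overlap for complex I accessory subunits and complex II.

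Between NMO and Normal, which sets the injected mice against untreated ones on day 1, none of the 81 genes passed the test. At an adjusted p under 0.05, 0 were higher and 0 lower (edgeR quasi-likelihood test, Benjamini-Hochberg over 12292 genes), where 0.472% of all genes tested were higher and 0.0244% lower. DESeq2 and limma-voom also called 0 of the 81. At an unadjusted p under 0.05, 5 were higher (6.17%, against 6.05% of all genes) and 0 lower, against 3.46%. The median log2 fold change over the 81 was 0.22, against -0.01 over all genes, and 60 of the 81 (74.1%) had a value above 0, against 49.3% of all genes. In 13 of the 81 (16%) the 3 NMO libraries lay above the 3 Normal libraries, against a background of 9.21%, and in 3 (3.7%) they lay below, against 8.2%. Without NMO replicate 2, the library low in erythrocyte markers, the median was 0.13, and without Normal replicate 1 it was 0.16. The summed microglial markers, lower in NMO, moved with this comparison. The summed monocyte markers did too, at 1.81 times the Normal level with a median log2 fold change of 0.86, overlapping groups and 0 of 7 called. The astrocyte and oligodendrocyte markers summed to 0.596 times the Normal level, with a median of -0.88 over the 5 tested, overlapping groups and 0 called. The neuronal markers summed to 0.246 times the Normal level, with a median of -2.32 over the 3 tested, overlapping groups and 0 called. The part of these markers was not tested. Scaling by library totals alone moved the median of all genes from -0.01 to 0.10 and that of the 81 to 0.30.

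The 5 genes at an unadjusted p under 0.05 included 3 of complex III, and all values that follow are log2 fold changes from edgeR. Uqcr11, a small subunit of complex III, was at 28.5, 14.3 and 13.5 CPM in Normal and 32.6, 33.0 and 54.3 in NMO, the largest difference of its complex at 1.09 ± 0.40 (SE, adjusted p = 0.354). The lowest NMO library lay above the highest Normal library. Its 3′ end resembles the pseudogene Gm16418 at 98.2% identity over 111 bases, so its reads could be divided. Uqcrc1, a core protein of complex III, gave 0.73 ± 0.30 (adjusted p = 0.433) and Cyc1, the cytochrome c1 haem protein, 0.59 ± 0.28 (adjusted p = 0.52), both with overlapping groups. Of the remaining pair, Sdhc is described with complex II, and Ndufa12 with the comparison in which it passed the test.

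Some other genes with differences of similar size between NMO and Normal overlapped between the groups and some did not. Ndufb6, an accessory subunit of complex I, gave 0.98 ± 0.49 (adjusted p = 0.571), with 17.5, 8.43 and 11.9 CPM in Normal and 28.5, 10.8 and 35.5 in NMO, which overlapped. The 3′ end of Ndufb6 lies across exons of Smim27 on the opposite strand, and whether counting used strand was not stated in the sources used here. Among core subunits of complex I, Ndufs7 gave the largest value at 0.46 ± 0.37 (adjusted p = 0.804). Over the alternatives the value of Ndufs7 ran from 0.17 to 0.78. All 15 complex V genes had values above 0, from 0.01 to 0.58, the highest being Atp5g1. Atp5sl, which is not a subunit, gave the lowest value of the 81 at -0.62 ± 0.31 (adjusted p = 0.559), with all NMO libraries below all Normal ones. Ndufb7, another accessory subunit of complex I, had all NMO libraries above all Normal ones at 0.65 ± 0.38 (adjusted p = 0.655).

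**Figure D2:**
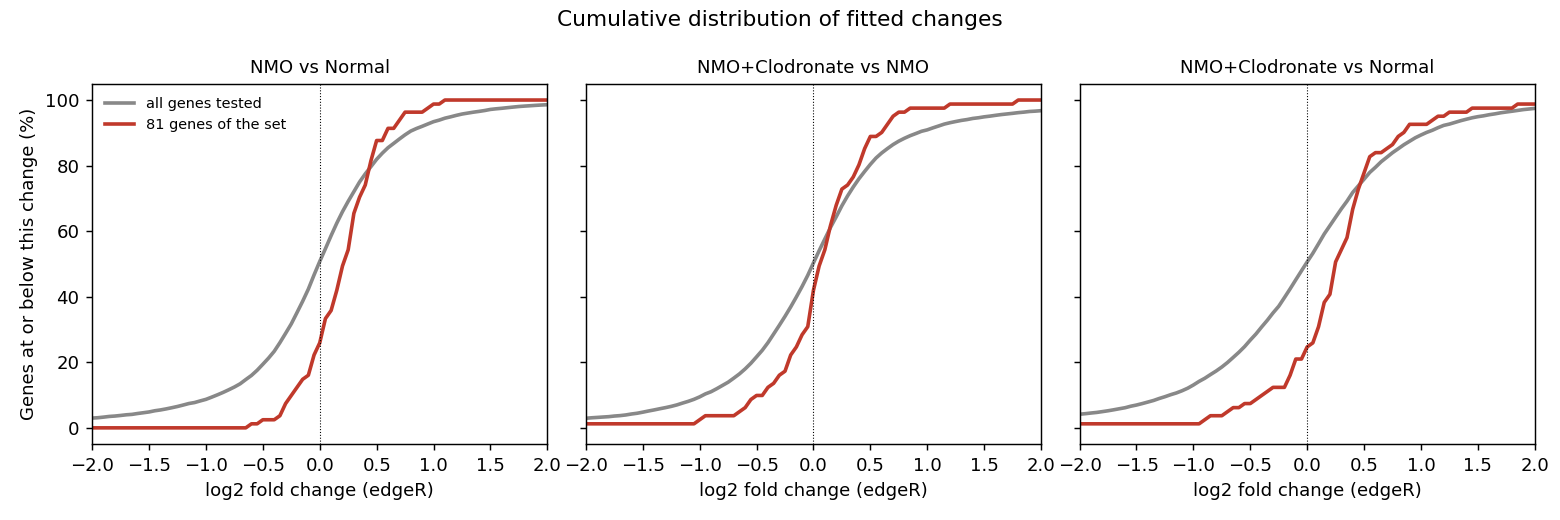
Cumulative share (%) of genes at or below each log2 fold change (edgeR, x axis shown from -2 to 2), for all 12292 genes tested (grey) and for the 81 tested genes of the set (red), in the 3 comparisons. The red curve runs to the right of the grey one around 0 in both comparisons with Normal, where the medians were 0.22 and 0.25 against -0.01 for all genes, and in NMO+Clodronate against NMO it lies below the grey curve up to 0 (42.0% of the set against 50.3% of all genes at 0) and above it at 0.2 (67.9 against 64.4%).

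Between NMO+Clodronate and NMO, which addresses what the liposomes given beforehand changed, 1 of the 81 genes passed the test. Sdhd was lower (1.23% of the 81, where 1.07% of all genes tested were lower), and 0 were higher, where 0.529% of all genes were. At an unadjusted p under 0.05, 4 were higher (4.94%, against 4.92% of all genes) and 3 lower (3.7%, against 7.47%). DESeq2 also called Sdhd lower and called Ndufa12 higher, where it called 2.21% of all genes lower and 1.57% higher. Limma-voom called none of the 81. The median over the 81 was 0.05, against -0.00 over all genes, and 47 (58%) were above 0, against 49.7%. In 8 genes (9.88%) the NMO+Clodronate libraries all lay above the NMO libraries, against a background of 7.89%, and in 4 (4.94%) below, against 9.22%. The median turned to -0.01 without NMO+Clodronate replicate 1. The summed microglial markers, lower in NMO+Clodronate, and erythrocyte markers, higher in it, moved with this comparison without overlap between the groups. The 5 erythrocyte markers were mixed, with log2 fold changes from -1.13 to 1.31 and 0 called. The summed neutrophil markers were at 2.80 times the NMO level, with overlapping groups and 0 of 8 called. The summed monocyte markers were at 0.737 times the NMO level, with a median log2 fold change of -1.24, and the astrocyte and oligodendrocyte markers at 0.634 times, with a median of -1.84 over the 5 tested, both with overlapping groups and 0 called. The part of these markers was not tested.

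Between NMO+Clodronate and Normal, 3 of the 81 genes passed the test, Ndufa12 and Atp5g1 higher (2.47%, where 4.79% of all genes tested were higher) and Sdhd lower (1.23%, where 4.43% were lower). At an unadjusted p under 0.05, 11 were higher (13.6%, against 11% of all genes) and 3 lower (3.7%, against 11.3%). The median log2 fold change of the 81 was 0.25, against -0.01 over all genes, and 61 (75.3%) were above 0, against 49.4%. In 18 (22.2%) all NMO+Clodronate libraries lay above the Normal libraries, against a background of 13.8%, and in 4 (4.94%) below, against 14.9%. The genes varied less between libraries than genes did in general, with a median biological coefficient of variation of 0.268 against 0.377, and their median level was 47.3 CPM against 20.4. The comparisons share libraries, so their values are not independent of each other. The 5 erythrocyte markers ran from -0.54 to 1.25 on the log2 scale here, with 0 called. Their sum, higher in NMO+Clodronate, and that of the microglial markers, lower in it, moved with this comparison. The summed neutrophil markers moved with it too, at 3.33 times the Normal level, with log2 fold changes of 0.14 to 2.03 over all 8 markers and 0 called, and the groups overlapped only through Normal replicate 1. The summed astrocyte and oligodendrocyte markers, highest in that same library, were at 0.378 times the Normal level with overlapping groups, a median of -2.71 over the 5 tested and 1 called lower. The part of these markers was not tested. Without Normal replicate 1 the median of the set was 0.29, with 2 genes higher and 2 lower, where 2.98 and 2.72% of all genes were. Without NMO+Clodronate replicate 1 the median was 0.16, with 1 higher and 1 lower, where 3.8 and 3.85% of all genes were.

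**Figure D3:**
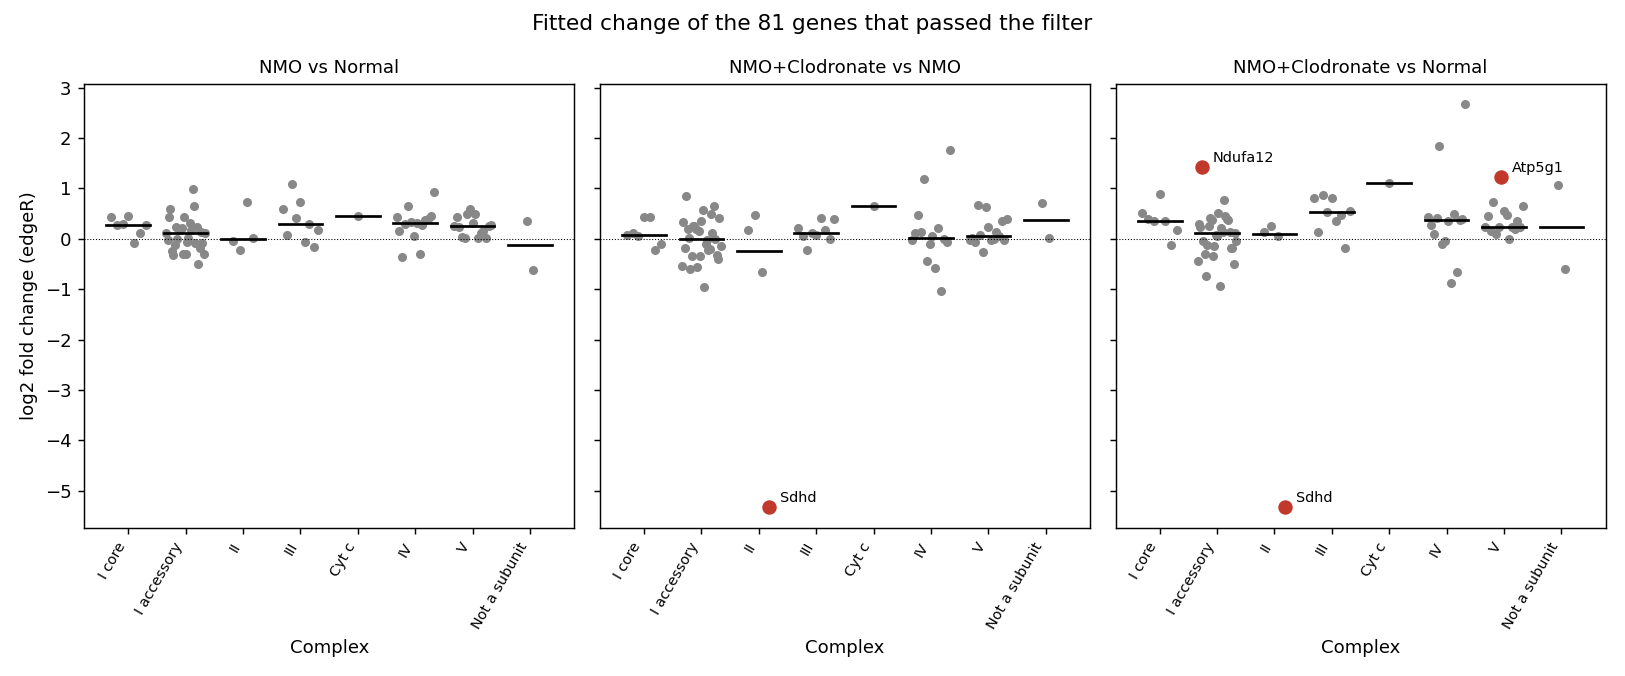
Log2 fold change (edgeR) of the 81 tested genes by complex in the 3 comparisons, with 1 point per gene, a black bar at the median of each complex, and genes with an adjusted p under 0.05 in red with their names. Sdhd lies at -5.33 and -5.32 in the comparisons with NMO+Clodronate, Ndufa12 and Atp5g1 lie above 1 in NMO+Clodronate against Normal, and no gene is red in NMO against Normal.

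Complex II is succinate dehydrogenase, the enzyme shared by the citric acid cycle and the respiratory chain, and 1 of its 4 genes changed. Sdhd encodes 1 of the pair of membrane anchor subunits that bind ubiquinone. It had 88, 85 and 219 counts in the Normal libraries, 215, 256 and 39 in NMO, and 7, 3 and 0 in NMO+Clodronate, which is 14.02, 12.8 and 36.9 CPM, 27.0, 30.6 and 6.24 CPM, and 1.02, 0.486 and 0 CPM. The highest NMO+Clodronate library lay below the lowest of the 6 others, while Normal and NMO overlapped and each held 1 library far from the rest. Sdhd was 40.3-fold lower in NMO+Clodronate than in NMO (log2 fold change -5.33 ± 0.86, edgeR adjusted p = 0.00415) and 40-fold lower than in Normal (-5.32 ± 0.86, adjusted p = 7.67e-04). With 10 counts over the NMO+Clodronate libraries the size of the fold is loosely set. The log2 fold change ran over the alternatives from -6.36, without NMO+Clodronate replicate 1, to -4.78, without NMO+Clodronate replicate 3, against NMO, and from -6.35, without NMO+Clodronate replicate 1, to -4.67, without Normal replicate 3, against Normal. The counts cover reads near the 3′ end of the transcript, and the reads themselves were not examined. Sdhd passed in 16 of 17 alternative analyses in each comparison and failed with limma-voom (adjusted p = 0.183 and 0.0866).

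The other 3 subunits of complex II did not pass the test in any comparison. Sdha, the flavoprotein that oxidizes succinate, was at 109, 128 and 134 CPM in Normal, 90.3, 118 and 153 in NMO, and 130, 134 and 141 in NMO+Clodronate, so all 3 groups overlapped. Sdhb, the iron-sulphur subunit, was at 102, 107 and 98.8 CPM in Normal, 78.8, 95.05 and 89.7 in NMO, and 99.7, 116 and 150 in NMO+Clodronate. All NMO values of Sdhb lay below the other 6, and the difference of NMO+Clodronate from NMO was 0.47 ± 0.21 (edgeR adjusted p = 0.36). Sdhc, the other membrane anchor, was at 54.8, 64.3 and 43.8 CPM in Normal, 78.8, 92.8 and 99.3 in NMO, and 79.4, 67.6 and 23.2 in NMO+Clodronate. NMO lay above Normal for Sdhc (0.73 ± 0.34, adjusted p = 0.507), and NMO+Clodronate overlapped both groups.

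The gene next to Sdhd was compared in the same libraries. In GENCODE on GRCm38, Sdhd spans chr9:50596357-50603812 on the minus strand, and Timm8b, an import chaperone of the mitochondrial intermembrane space, spans chr9:50603910-50605320 on the plus strand. Their GENCODE starts lie 98 bases apart, facing away from each other, and the start of Timm8b lies within the Sdhd promoter window printed above. That window and its motif positions use the RefSeq start of Sdhd, which lies closer to Timm8b than the GENCODE start. The Nrf1 match of the window lies past the start of Timm8b, within that gene. Timm8b was at 28.4, 28.4 and 28.6 CPM in Normal, 29.3, 24.2 and 38.3 in NMO, and 28.2, 33.1 and 22.4 in NMO+Clodronate. Its groups overlapped, with log2 fold changes of -0.13 ± 0.31 against NMO (edgeR adjusted p = 0.932) and -0.03 ± 0.31 against Normal (adjusted p = 0.978). No other GENCODE gene resembled the last 300 bases of Sdhd at 95% identity over at least 60 bases.

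**Figure D4:**
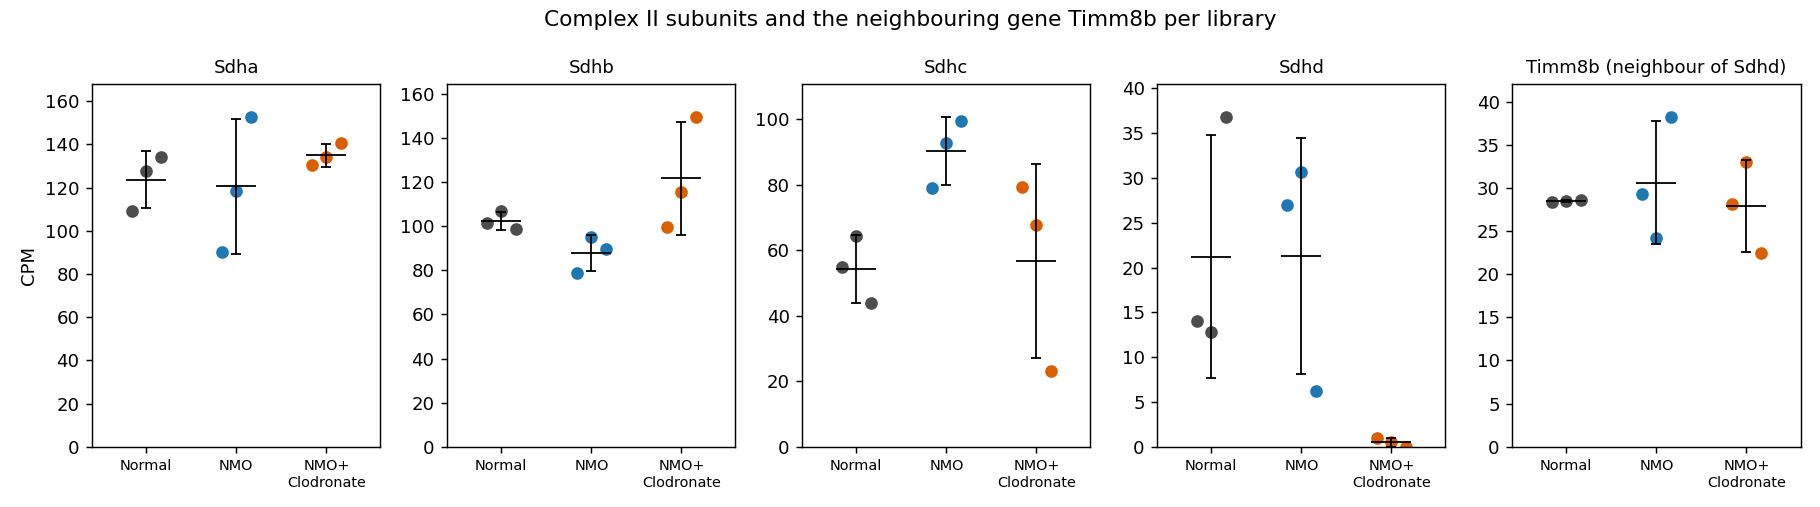
CPM (TMM scaled, linear axes from 0) of the 4 complex II genes and of Timm8b, the gene next to Sdhd, in each library, with 1 point per library, a bar at the group mean and an error bar of 1 SD (n = 3). The NMO+Clodronate points of Sdhd lie between 0 and 1.02 CPM, below all other libraries, while Sdha, Sdhc and Timm8b overlap between NMO+Clodronate and Normal.

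Ndufa12, an accessory subunit of the arm of complex I that protrudes into the matrix, was the gene of the set with the smallest adjusted p among those that rose. It was at 36.7, 30.7 and 36.0 CPM in Normal, 62.9, 53.6 and 38.1 in NMO, and 102, 94.3 and 79.9 in NMO+Clodronate. The 3 groups did not overlap, with Normal lowest and NMO+Clodronate highest. It was 2.68-fold higher in NMO+Clodronate than in Normal (log2 fold change 1.42 ± 0.25, edgeR adjusted p = 0.00158) and passed in all 17 alternatives, with a highest adjusted p of 0.0135. Against NMO the difference was 0.84 ± 0.25 (adjusted p = 0.122, called by DESeq2 alone among the 17 alternatives at 0.0358), and NMO against Normal gave 0.58 ± 0.25 (adjusted p = 0.468).

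The remaining complex I genes did not pass the test. Ndufs7, a core subunit that holds an iron-sulphur cluster near the ubiquinone site, gave the largest value of the core in each comparison, and reached 0.89 ± 0.37 in NMO+Clodronate against Normal (edgeR adjusted p = 0.155). Its NMO+Clodronate libraries, at 43.6, 42.0 and 37.1 CPM, lay above the Normal libraries at 28.2, 17.6 and 20.2, and NMO, at 40.5, 36.0 and 14.1, overlapped both. Ndufb3, a small accessory subunit of the membrane arm, was at 34.9, 57.3 and 102 CPM in Normal, 56.2, 56.5 and 84.4 in NMO, and 45.7, 32.4 and 23.1 in NMO+Clodronate. NMO+Clodronate lay below NMO for Ndufb3 (-0.96 ± 0.36, adjusted p = 0.233, called in 1 of 17 alternatives) and overlapped Normal (-0.94 ± 0.36, adjusted p = 0.117, called in 2 of 17 alternatives, among them without Normal replicate 1). Over the alternatives its value against Normal ran from -1.23 to -0.45. The 3′ end of Ndufb3 resembles the pseudogene Gm45930 at 97.8% identity over 136 bases, so its reads could be divided. Of the 29 accessory subunits, 17 had a value above 0 in NMO+Clodronate against Normal, with a median of 0.12, and 6 of the 7 core subunits did, with a median of 0.34.

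Complex III and cytochrome c had the highest medians of the set in NMO+Clodronate against Normal, and no gene of either passed the test. The complex III median was 0.53, with 8 of 9 genes above 0. Cyc1 was at 48.6, 29.04 and 37.5 CPM in Normal, 44.1, 66.8 and 62.9 in NMO, and 64.5, 82.6 and 53.3 in NMO+Clodronate. For Cyc1, NMO+Clodronate lay above Normal (0.80 ± 0.28, edgeR adjusted p = 0.0871) and NMO overlapped both. Cycs, which encodes the mobile carrier that also takes part in apoptosis when released, was at 12.6, 27.1 and 18.8 CPM in Normal, 21.8, 41.3 and 17.1 in NMO, and 40.9, 39.5 and 46.0 in NMO+Clodronate. Its NMO+Clodronate libraries lay within a narrow range above all Normal libraries (1.11 ± 0.38, adjusted p = 0.0788, called in 2 of 17 alternatives), and NMO replicate 2 reached that range. Uqcrc1 gave 0.80 ± 0.30 (adjusted p = 0.106) and Uqcr11 0.86 ± 0.40 (adjusted p = 0.218). Over the alternatives the value of Uqcr11 ran from 0.43 to 1.30. In NMO+Clodronate against NMO the largest value of complex III was that of Uqcrc2, the other core protein, at 0.40 ± 0.22 (adjusted p = 0.49), and its 3′ end lies across exons of Pdzd9 on the opposite strand.

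Complex IV, cytochrome c oxidase, has several subunits that exist as ubiquitous and tissue-restricted isoforms. In 5 of these pairs or groups only the ubiquitous form passed the filter, namely Cox4i1, Cox6b1, Cox7a2 with Cox7a2l, Cox7b and Cox8a, and none of these passed the test in any comparison. Cox6a2, known as the heart and skeletal muscle form of Cox6a1, was counted in all 9 libraries at 10.8, 1.81 and 6.39 CPM in Normal, 12.6, 7.18 and 10.2 in NMO, and 20.3, 30.8 and 17.1 in NMO+Clodronate. The NMO+Clodronate libraries lay above all 6 others, at 1.84 ± 0.58 against Normal (edgeR adjusted p = 0.0551, called in 6 of 17 alternatives) and 1.18 ± 0.56 against NMO (adjusted p = 0.406), while NMO against Normal gave 0.66 ± 0.57 (adjusted p = 0.837). Over the alternatives the value against Normal ran from 1.40, without Normal replicate 2, to 2.48, without Normal replicate 1 (adjusted p = 0.18 and 0.0387). The 3′ end of Cox6a2 overlaps exons of Itgad, an integrin gene, on the opposite strand, so reads of the pair cannot be told apart if counting ignored strand. Cox6a1 was at 110 to 130 CPM in Normal, 138 to 167 in NMO and 136 to 197 in NMO+Clodronate, with both injected groups above Normal.

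Cox7a2l, known for its part in joining complexes III and IV into supercomplexes, was among the 4 of the 81 tested genes whose NMO+Clodronate libraries all lay below Normal. It was at 91.0, 98.1 and 125 CPM in Normal, 64.4, 51.8 and 138 in NMO, and 61.1, 58.0 and 50.9 in NMO+Clodronate. All NMO+Clodronate libraries lay below all Normal libraries (-0.89 ± 0.30, edgeR adjusted p = 0.0803, called in 4 of 17 alternatives, among them without NMO replicate 2 and without NMO replicate 3), and NMO spanned both. Cox7c, a small structural subunit, was at 25.3, 36.4 and 58.7 CPM in Normal, 50.5, 39.3 and 66.0 in NMO, and 36.6, 24.9 and 14.4 in NMO+Clodronate. NMO+Clodronate lay below NMO for Cox7c (-1.03 ± 0.38, adjusted p = 0.219), and the end of its transcript is nearly identical to Gm10012 and Gm12338, which could divide its reads.

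Ndufa4 and Ndufa4l2 encode a pair of related proteins, of which the latter is known to be induced by hypoxia. Ndufa4 was at 30.6, 13.5 and 16.5 CPM in Normal, 27.9, 39.3 and 15.8 in NMO, and 43.2, 22.8 and 13.6 in NMO+Clodronate, with all groups overlapping. Ndufa4l2 had 2, 7 and 12 counts in Normal, 26, 25 and 1 in NMO, and 18, 58 and 62 in NMO+Clodronate. The NMO+Clodronate libraries lay above the Normal libraries, at 2.68 ± 1.29 (edgeR adjusted p = 0.231), and NMO overlapped both. Its 3′ end overlaps exons of Shmt2 on the opposite strand.

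Atp5g1 is 1 of 3 genes, with Atp5g2 and Atp5g3, that encode the same mature c subunit of the proton-driven rotor of ATP synthase behind different import sequences. It was at 21.8, 23.3 and 11.4 CPM in Normal, 29.04, 34.5 and 21.1 in NMO, and 45.8, 48.4 and 37.6 in NMO+Clodronate. The NMO+Clodronate libraries lay above all 6 others, and Normal and NMO overlapped. Atp5g1 was 2.33-fold higher in NMO+Clodronate than in Normal (log2 fold change 1.22 ± 0.34, edgeR adjusted p = 0.0321). It passed in 12 of 17 alternatives and lost the call without any 1 of Normal replicates 1, 2 or 3 or NMO+Clodronate replicates 1 or 2 (adjusted p up to 0.155). Against NMO the difference was 0.64 ± 0.34 (adjusted p = 0.467). A noncoding GENCODE gene, Gm32885, resembles 164 bases of its 3′ end at 95.1% identity, so its reads could be divided. The same limit holds for 21 of the 87 genes, each with another GENCODE gene at 95% identity or more over at least 60 of the last 300 bases.

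The other c subunit genes gave smaller values in the same direction. Atp5g2 was at 34.4, 37.6 and 41.0 CPM in Normal, 40.1, 41.9 and 59.2 in NMO, and 47.9, 50.5 and 67.1 in NMO+Clodronate, which lay above Normal (0.55 ± 0.27, edgeR adjusted p = 0.242). Its 3′ end resembles 3 other genes, with Gm10175 identical over 127 bases, so its reads could be divided. Atp5g3 was at 106, 164 and 161 CPM in Normal, 187, 175 and 244 in NMO, and 258, 176 and 159 in NMO+Clodronate, and NMO+Clodronate overlapped Normal (0.46 ± 0.23, adjusted p = 0.267). Whether the 3 genes differ from each other in their change was not tested. Atp5d, the delta subunit of the central stalk, was at 80.3, 64.3 and 37.0 CPM in Normal, 56.2, 82.6 and 47.9 in NMO, and 106, 112 and 80.5 in NMO+Clodronate. It gave the largest complex V value against NMO at 0.68 ± 0.29 (adjusted p = 0.328), with overlapping groups. All 15 complex V genes had values above 0 in NMO+Clodronate against Normal, with a median of 0.24.

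**Figure D5:**
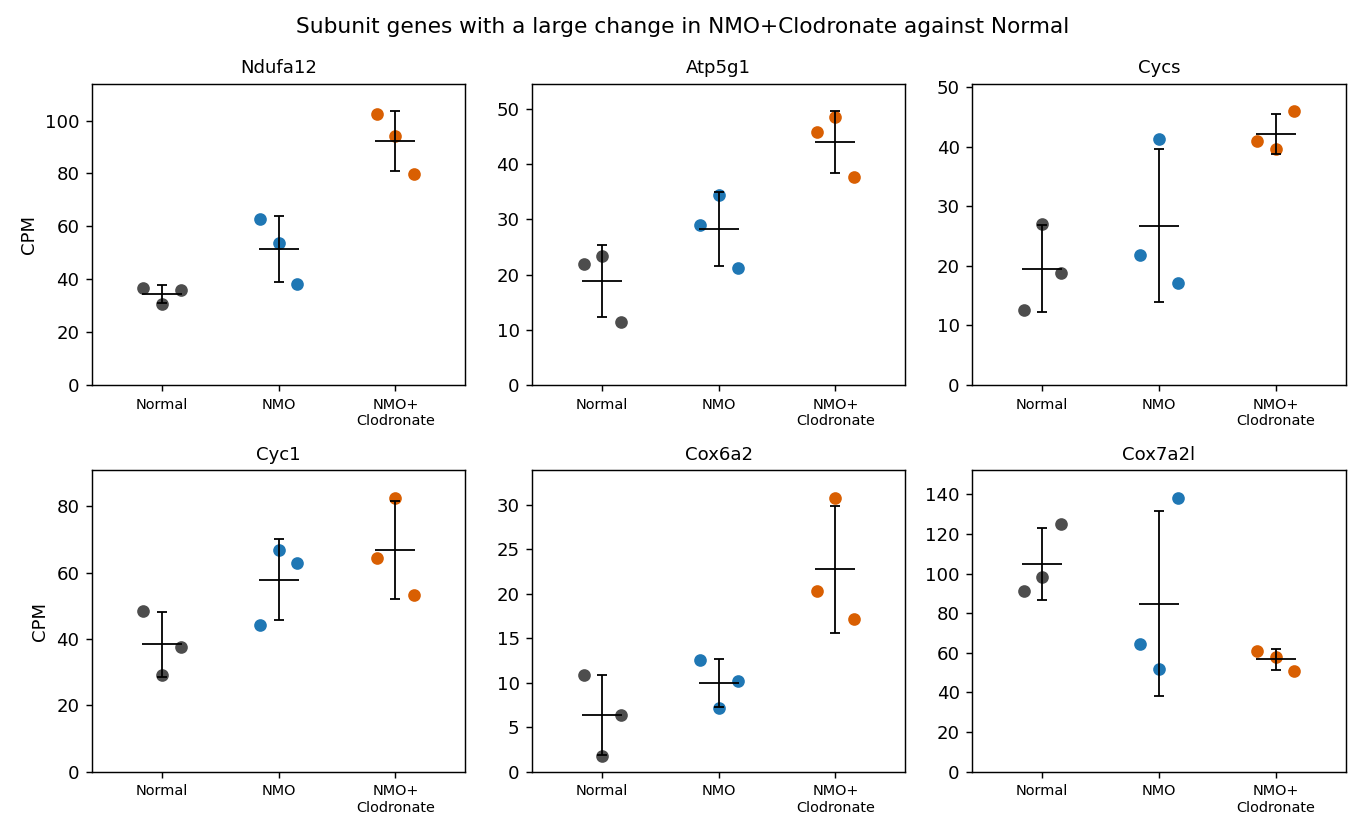
CPM (TMM scaled, linear axes from 0) of Ndufa12, Atp5g1, Cycs, Cyc1, Cox6a2 and Cox7a2l in each library, with 1 point per library, a bar at the group mean and an error bar of 1 SD (n = 3). NMO+Clodronate lies above Normal in the first 5 and below it for Cox7a2l, and only Ndufa12 and Atp5g1 passed the test.

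Atp5s was the other gene with a library at 0 and enough counts to be tested. It had 10, 6 and 28 counts in Normal, 55, 19 and 0 in NMO, and 27, 27 and 43 in NMO+Clodronate, and all 3 groups overlapped. No comparison of Atp5s passed the test.

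The other nuclear genes of mitochondrial energy metabolism were read from the same fit in lists of assembly factors, citric acid cycle enzymes, mitochondrial ribosomal proteins, protein import, biogenesis regulators, and coupling and ATP export. The lists were chosen with earlier results of these data known, and no list was tested as a whole. In NMO+Clodronate against Normal, 15 of the 190 tested genes of these lists were higher, which is 7.89% against 4.79% of all genes, and 0 were lower, against 4.43% of all genes. The list medians ran from 0.19 for small ribosomal subunit proteins to 0.54 for import, so that the 0.25 of the subunit genes lay within their range. In NMO against Normal the list medians ran from 0.17 to 0.52, and 1 of the 190 genes was higher, which is 0.526% against 0.472% of all genes and so close to the background.

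Protein import gave the most calls in NMO+Clodronate against Normal, 5 of 26 genes (19.2%, against 4.79% of all genes). As its genes were chosen with earlier results of these data known, this share is only a description and was not tested. Hspd1, the matrix chaperonin, was at 73.0, 95.4 and 114 CPM in Normal, 156, 148 and 98.6 in NMO, and 229, 239 and 203 in NMO+Clodronate (1.25 ± 0.23, edgeR adjusted p = 0.00169). Its NMO+Clodronate libraries lay above all others. Hspa9, the matrix motor of import, Tomm40, the outer membrane pore, Tomm70a, a receptor, and Timm10, an intermembrane chaperone, were also higher, at 0.82 to 1.49. Hspd1 was called in all 17 alternatives, Hspa9 in 14, Timm10 in 11, and Tomm40 and Tomm70a in 9 each. Limma-voom called none of Timm10, Tomm40 and Tomm70a, and the replicate block called neither Tomm40 nor Tomm70a.

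Among assembly factors, 3 of 48 were higher in NMO+Clodronate than in Normal (6.25%, near the 4.79% of all genes). Sco2, which delivers copper to complex IV, was at 11.95, 8.13 and 13.5 CPM in Normal, 22.9, 25.02 and 17.8 in NMO, and 59.8, 38.7 and 44.4 in NMO+Clodronate (2.09 ± 0.35, edgeR adjusted p = 9.9e-04). The 3 groups of Sco2 did not overlap. Pet117, another complex IV factor, gave 1.33 ± 0.37 (adjusted p = 0.0305, called in 13 of 17 alternatives) and Ndufaf4, a complex I factor, 1.02 ± 0.28 (adjusted p = 0.0255, called in 11 of 17). Sco2 was called in all 17. Ribosomal proteins gave 4 calls of 77 (5.19%), Mrpl12 and Mrps18b, called in all 17 alternatives, Mrpl52, called in 14, and Mrpl30, called in 10, at 1.12 to 1.84. The citric acid cycle gave 1 of 18 (5.56%), Idh3a, a subunit of isocitrate dehydrogenase, at 1.40 ± 0.33 (edgeR adjusted p = 0.0112, called in 14 of 17), and both shares were near that of all genes.

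A pair of the listed genes also passed the test in another comparison. In NMO against Normal that was 1 of the 190 tested genes higher (0.526%, against 0.472% of all genes). In NMO+Clodronate against NMO it was also 1 of 190 higher (0.526%, against 0.529%), and 0 were lower (against 1.07%). Both shares of higher genes were close to the background. Pprc1, a coactivator of the PGC-1 family, was at 2.39, 8.43 and 7.07 CPM in Normal, 17.2, 37.6 and 32.7 in NMO, and 28.0, 25.4 and 15.9 in NMO+Clodronate. Both injected groups lay above Normal, at 2.29 ± 0.49 for NMO (edgeR adjusted p = 0.0479, called in 8 of 17 alternatives) and 1.95 ± 0.49 for NMO+Clodronate (adjusted p = 0.0166, called in 13 of 17). Ucp2, an inner membrane carrier, was at 54.3, 55.1 and 75.2 CPM in Normal, 75.6, 65.1 and 71.4 in NMO, and 105, 174 and 133 in NMO+Clodronate. Its NMO+Clodronate libraries lay above all others, at 1.16 ± 0.24 against Normal (adjusted p = 0.00425) and 0.96 ± 0.24 against NMO (adjusted p = 0.0484, called in 6 of 17 alternatives).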

How the data were processed

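RNA from sorted microglia was made into 3′ end libraries (QuantSeq) and the reads were counted per gene by the authors. The deposited files hold whole-number counts per gene symbol, 1 file per library. The submitters' processing notes name Bowtie2, bedtools and the mm10 genome, while versions, the gene annotation and whether reads were counted by strand are not given in the sources used here. Each file had 23282 entries, and entries sharing 1 of 35 symbols were summed, none of them among the 87 genes. Groups were taken from the sample labels. Genes with at least 10 counts in enough libraries (filterByExpr, minimum total 15) were fitted in edgeR 4.0.16 under R 4.3.3, with TMM scaling and all 9 libraries in 1 fit, and the 3 contrasts were tested with the quasi-likelihood F test and Benjamini-Hochberg adjustment over all 12292 genes, called at 0.05. The 17 alternatives included DESeq2 1.42.0, limma-voom (limma 3.58.1), other scalings and filters, a replicate block, and leaving out each library. Scripts were tested on simulated data. CPM were counts scaled to the TMM-adjusted library size, and errors are SD over 3 libraries or the SE of a log2 fold change. The filter left out a gene when too few libraries reached about 10 counts, so genes that passed can still hold single values under 10. Replicate libraries differed by far more than sampling noise. Values compare a gene between libraries, not genes with each other.

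The 87 genes, the pathway lists and the marker lists were chosen with earlier results of these data known. Genes named singly were those called in any contrast, the largest change per complex and contrast with a mean count of at least 50, all of complex II, Cyc1, Cycs, isoform families, genes at 0 in a library but averaging at least 20 counts, and called genes of the pathway lists. Ndufb7, Uqcrc1, Cox7c and Atp5sl are also given, having been picked after their values were seen. Gene positions and 3′ ends came from GENCODE M21 on GRCm38 and promoter windows from RefSeq on GRCm38.p6.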

Additional observations from a re-analysis of the deposited data

How the results depend on the processing

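Same-numbered libraries correlated at -0.01 to 0.03 in their deviations from group means, which shows no strong shared effect. This cannot settle whether the replicate numbers mark a shared preparation, which the labels do not state. With a replicate block, 4 of the 81 tested genes were higher in NMO+Clodronate than in Normal in place of 2, where 4.65% of all genes were. The counts of calls in the other comparisons were the same. Testing every gene with a count took in 85 of the set. It gave 4 higher and 3 lower in NMO+Clodronate against Normal, where 4.27% of all genes were higher and 4.12% lower. It gave 2 lower in NMO+Clodronate against NMO, where 1.83% of all genes were lower. DESeq2 gave 1 higher in NMO+Clodronate against NMO, where 1.57% of all genes were higher. Limma-voom gave 0 lower in both comparisons with NMO+Clodronate, where 0.822% (against NMO) and 4.3% (against Normal) of all genes were lower. Fitting only the groups compared gave 2 lower against Normal, where 4.88% of all genes were lower. Leaving out each library in turn gave 1 to 3 higher and 1 to 2 lower in NMO+Clodronate against Normal. In these fits 2.57 to 4.92% of all genes were higher and 2.35 to 4.77% lower. The medians over the set ran from 0.13 to 0.24 in NMO against Normal, with the lowest without NMO replicate 2. They ran from -0.01 to 0.11 in NMO+Clodronate against NMO and from 0.16 to 0.33 in NMO+Clodronate against Normal. Library totals alone gave a median of 0.30 in NMO against Normal and a summed level of 4117 CPM in Normal. With Rn45s removed the summed levels were 5509, 6177 and 6486 CPM in Normal, NMO and NMO+Clodronate, by construction of the smaller totals. For the other changes the cause was not tested. Only a part of the single-gene results was followed under these alternatives, 21 that had passed the test and 37 that had not. Sdha, Ndufa4, Atp5s and Timm8b, for example, were not among them. None of those followed changed direction. Since many were picked for a call or a large change, this does not extend to the other genes. The 21 that had passed lost the call in 79 of 357 values (22.1%), and the 37 that had not gained it in 16 of 629. Pools of 3 mice, 3 libraries a group and few counts for Sdhd, Ndufa4l2 and Atp5s limit the precision.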
